A study of Mus musculus with 4 samples.

Results

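A list of 10 genes that the transcription factor p53 is known to switch on was followed in donor-derived mouse blood progenitors from libraries labelled as deleted for Mll3, Mll4 or both. They were Cdkn1a, Mdm2, Ccng1, Phlda3, Bax, Bbc3, Trp53inp1, Zmat3, Sesn2 and Eda2r, out of 32285 genes counted, and they were picked as a list of p53 targets to ask whether loss of either methyltransferase went with a DNA damage response. The cells were donor (CD45.2+) bone marrow cells of the LSK sort (lineage negative, Sca1 positive, Kit positive), which contains stem cells of the blood together with early progenitors, collected 10 weeks after transplantation into recipients. There was 1 library for each of 4 donor genotypes: control, Mll3 deleted, Mll4 deleted, and Mll3 and Mll4 both deleted. The number, strain and age of the mice and the way the alleles were deleted are not given in the sources used here.

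Mll3 and Mll4, encoded by Kmt2c and Kmt2d, are methyltransferases that place a methyl mark on histone H3 at enhancers. p53 (Trp53) is held low by the ubiquitin ligase Mdm2 and is stabilised when DNA breaks or other stress activate kinases such as Atm and Chek2, or when the Arf product of Cdkn2a binds Mdm2. Its targets then stop the cell cycle, repair DNA, or start cell death. In blood progenitors the pathway limits the output of damaged or leukaemic cells, and in B progenitors it acts while the antigen receptor genes are being cut and rejoined.

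With a single library per genotype, no difference between genotypes can be set against a spread between mice, and for that reason nothing was tested and no p-value is given. Levels are counts of unique molecular identifiers (UMIs, counted RNA molecules) of a gene, given per 1000000 UMIs of all genes in the same cells (CPM). Intervals are 95% exact Poisson intervals for levels, exact conditional intervals for log2 ratios, and exact Clopper-Pearson intervals for shares of cells. They cover counting error only. In these sums, fewer cells with a transcript and less transcript per cell cannot be told apart unless a share of cells is given beside the level.

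Cells that passed the filter numbered 7274 in the control, 6101 in the Mll3, 4793 in the Mll4 and 4748 in the double library, the one labelled as lacking both genes. They held between 50792614 and 120700343 UMIs per library. Median UMIs per cell ranged from 8920 in the double library to 21400 in the Mll4 library, and 61 of 22855 distinct barcodes occurred in at least 2 libraries. Kmt2c was at 68.9 CPM in the control, 35.3 in the Mll3, 61.3 in the Mll4 and 42.3 in the double library. Kmt2d was at 24.6, 21.6, 22.6 and 25.4 CPM in the same order, so it was lowest in the Mll3 library and not lower in the double library. In the Mll4 library its log2 ratio to the control was -0.12 (-0.20 to -0.05), near the median of -0.13 for all genes with at least 20 CPM. Kmt2d levels thus do not bear out either label that names Mll4, and libraries are named by their labels. The counts come from the 3-prime end, and a deletion elsewhere in Kmt2d would leave them in place.

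Cell content differed between libraries in ways that touch every comparison below. The sort genes Kit and Ly6a (the gene of Sca1) were present in all 4 libraries, Kit at 215 to 362 CPM and Ly6a at 93.5 to 255 CPM. Mecom, a stem-cell transcription factor, was at 87.5 to 107 CPM in the other 3 libraries and at 1.004 CPM in the double library. Cells were also classed by marker transcripts after each was thinned to 3000 UMIs, with at least 5 UMIs of a marker list taken as a cut on a range, not as a cell type. By that cut 99.4% of double-library cells carried the B progenitor list (surrogate light chain, Rag1 and other early B genes), against 0.276% of control, 2.91% of Mll3 and 0.451% of Mll4-library cells. The mast list was carried by 17.2% and the macrophage list by 23.6% of Mll4-library cells, against at most 0.493% for either list in the other 3 libraries. Other lists differed too. The granulocyte and monocyte list was carried by 8.10% of control, 40.2% of Mll4 and 0.1485% of double-library cells. For the mature B and plasma list the shares were 2.26%, 23.55% and 61.65%, and for the dendritic list 11.8%, 32.9% and 1.91%.

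Several of the genes have letters of the p53 binding site near their start, and these are shown because the sites are what would tie the genes to p53 directly. RefSeq promoter windows (build GRCm38.p6, 250 bases before to 50 after the start) were found for 8 of the 10 genes, 11 windows in all. Trp53inp1 and Zmat3 had none among them. Counts below are of genes, and the shares beside them are of windows. The 10-base p53 half-site consensus, which is its own reverse complement and so covers both strands, was searched exactly and as pairs of half-sites at most 13 bases apart, with up to 2 mismatches outside the fixed core letters. Pairs and single half-sites can overlap. An exact half-site lay in the windows of 4 genes (Cdkn1a, Mdm2, Ccng1 and Bax), as it did in 8.36% of all 32851 windows. A pair with at most 2 mismatches lay in 3 of them (Cdkn1a, Ccng1 and Bax), as in 4.09% of all windows, and a pair with at most 1 mismatch (Cdkn1a and Ccng1) lay in 0.627%. Capitals mark the half-sites, read 5′ to 3′ on the strand of the gene, with 10 bases on either side.
Cdkn1a, adjoining pair with 1 mismatch, chr17:29090918-29090957, plus strand: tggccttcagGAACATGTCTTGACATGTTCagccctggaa
Cdkn1a, exact pair 12 bases apart that shares the first half-site above, chr17:29090896-29090947, plus strand: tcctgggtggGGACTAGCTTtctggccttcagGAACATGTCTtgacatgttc
Ccng1, adjoining pair with 1 mismatch, chr11:40755452-40755491, minus strand: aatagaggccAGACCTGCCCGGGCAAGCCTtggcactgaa
Bax, pair 5 bases apart with 2 mismatches, chr7:45467080-45467124, minus strand: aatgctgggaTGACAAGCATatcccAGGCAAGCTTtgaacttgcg
Mdm2, single half-site, chr10:117710925-117710954, minus strand: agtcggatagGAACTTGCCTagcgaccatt
Counted from the start site of the window that held it, the first capital lies between -216 (Bax) and -51 (the adjoining pair of Cdkn1a). The other Cdkn1a window, chr17:29093519-29093818, held no exact half-site, and its best pair had 5 mismatches. A match of letters does not show that p53 was bound there. The windows of Phlda3, Bbc3, Sesn2 and Eda2r held no such letters, which says nothing about sites elsewhere in those genes.

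In the double library, 9 of the 10 genes stood above the control and Sesn2 stood below it. The greatest differences were in Zmat3, Phlda3, Cdkn1a and Trp53inp1, which were 4.61 to 9.23 times the control. The Mll3 library showed small differences, with 7 of 10 genes higher beyond counting error and only Eda2r, the least abundant, past 2-fold. The Mll4 library was split, with 6 genes higher and 3 lower beyond counting error and none past 2-fold. At this depth most genes differed beyond counting error. Among the 10123 genes that averaged at least 5 CPM, the interval of the log2 ratio lay above 0 for 53.9% and below 0 for 21.8% in the Mll3 library, for 34.5% and 52.4% in the Mll4 library, and for 34.8% and 51.9% in the double library.

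**Figure D1:**
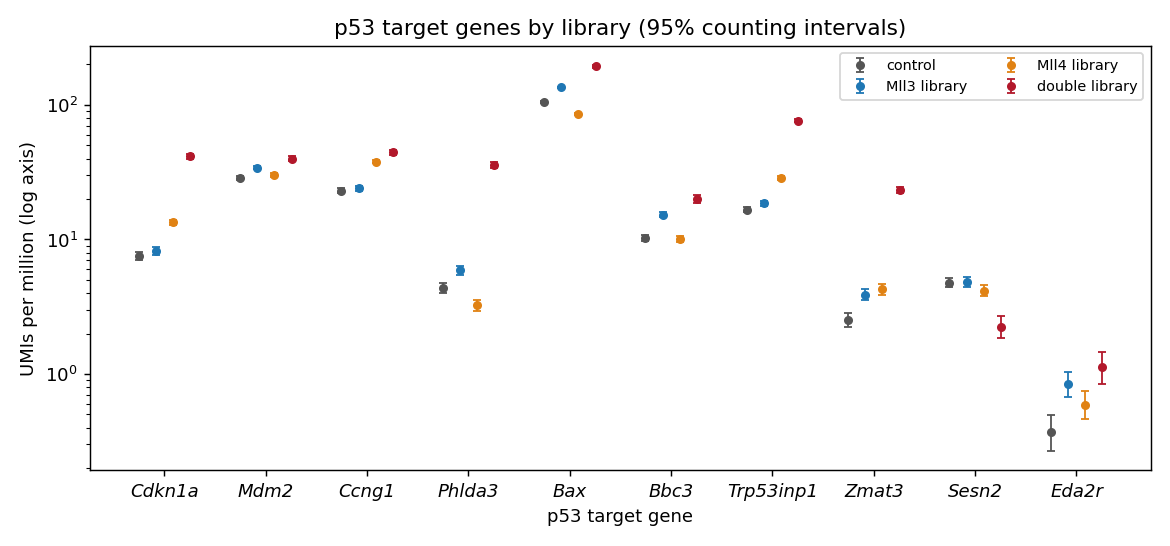
Level of each p53 target gene in the 4 libraries, in CPM on a log axis, 1 point per library, with bars for the 95% counting interval. The double-library points are the highest for 9 genes and the lowest for Sesn2.

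Among the genes that stop the cell cycle, Cdkn1a (chromosome 17, 29090976 to 29100727, GRCm38) encodes p21, the inhibitor of cyclin-dependent kinases through which p53 arrests cells. Its level was 7.57 CPM in the control (7.08 to 8.08), 8.27 in the Mll3 (7.73 to 8.84), 13.4 in the Mll4 (12.7 to 14.1) and 41.4 in the double library (39.7 to 43.3). The control and Mll3 intervals overlapped, and both other libraries stood above them. The log2 ratio to the control was 0.13 (-0.01 to 0.26) in the Mll3, 0.82 (0.70 to 0.94) in the Mll4 and 2.45 (2.34 to 2.57) in the double library. Ccng1 encodes cyclin G1, which recruits a phosphatase to Mdm2 and is among the most widely induced p53 targets. It was at 23.1 CPM in the control, 24.0 in the Mll3, 37.9 in the Mll4 and 44.5 in the double library. Both libraries labelled as lacking Mll4 were thus high for Ccng1, with log2 ratios of 0.72 (0.65 to 0.78) and 0.95 (0.87 to 1.03).

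Mdm2, which closes the feedback loop by marking p53 for destruction, differed least of the 9 genes that were higher in the double library. Its level was 28.6 CPM in the control, 34.3 in the Mll3, 30.3 in the Mll4 and 39.8 in the double library. The log2 ratios were 0.26 (0.19 to 0.33), 0.08 (0.02 to 0.15) and 0.48 (0.40 to 0.56). Trp53 itself was at 177 CPM in the control and at 191, 131 and 160 CPM in the other libraries, so its transcript was not higher where the targets were highest (log2 ratio -0.14, -0.18 to -0.11, in the double library, beside -0.11 for the median of all genes).

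Of the genes that promote cell death, Bax, which opens the outer mitochondrial membrane, was the most abundant of the 10. Bax (chromosome 7, 45461697 to 45466898) was at 106 CPM in the control (104 to 108), 135 in the Mll3 (133 to 137), 85.7 in the Mll4 (84.1 to 87.4) and 194 in the double library (190 to 198). No 2 of these intervals overlapped, and the Mll4 library was the lowest. Bbc3 encodes Puma, which frees Bax from its inhibitors. It was at 10.3, 15.3, 10.1 and 19.98 CPM in the same order, alike within counting error in the control and Mll4 libraries and higher in the other 2. Phlda3 (chromosome 1, 135766119 to 135769136) encodes a small protein that keeps the survival kinase Akt off the membrane. It was at 4.37 CPM in the control (4.00 to 4.76), 5.91 in the Mll3 (5.46 to 6.39), 3.23 in the Mll4 (2.92 to 3.57) and 35.7 in the double library (34.1 to 37.4). Its log2 ratio was 0.44 (0.27 to 0.61), -0.43 (-0.63 to -0.24) and 3.03 (2.89 to 3.17), so the Mll4 and double libraries lay on opposite sides of the control.

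Trp53inp1 encodes a stress protein that acts with p53 and in autophagy. It was at 16.6 CPM in the control, 18.6 in the Mll3, 28.9 in the Mll4 and 76.7 in the double library, and its UMIs were found in 20.3%, 22.1%, 29.9% and 49.4% of cells. Zmat3 (chromosome 3, 32334792 to 32366014) encodes a zinc finger protein that binds RNA and affects splicing. It was at 2.53 CPM in the control (2.25 to 2.83), 3.89 in the Mll3 (3.52 to 4.29), 4.25 in the Mll4 (3.89 to 4.63) and 23.4 in the double library (22.1 to 24.8). The double-library log2 ratio of 3.21 (3.02 to 3.40) was the highest of the 10 genes.

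Sesn2 encodes sestrin 2, which restrains the growth kinase complex mTORC1 under stress and also responds to amino acid shortage through Atf4. It was at 4.79 CPM in the control, 4.86 in the Mll3, 4.18 in the Mll4 and 2.24 in the double library (1.85 to 2.70), a log2 ratio of -1.09 (-1.40 to -0.80) for the last. Sesn2 shares its strand with Gm12981, which is counted separately in the matrix, so reads in the overlap could be split or lost. Eda2r encodes a receptor of the tumour necrosis factor family. It was near the limit of these data, with 44, 89, 71 and 57 UMIs in all (0.37, 0.84, 0.59 and 1.12 CPM), and its log2 ratios of 1.18 (0.65 to 1.74), 0.67 (0.11 to 1.25) and 1.60 (1.01 to 2.21) have wide intervals.

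**Figure D2:**
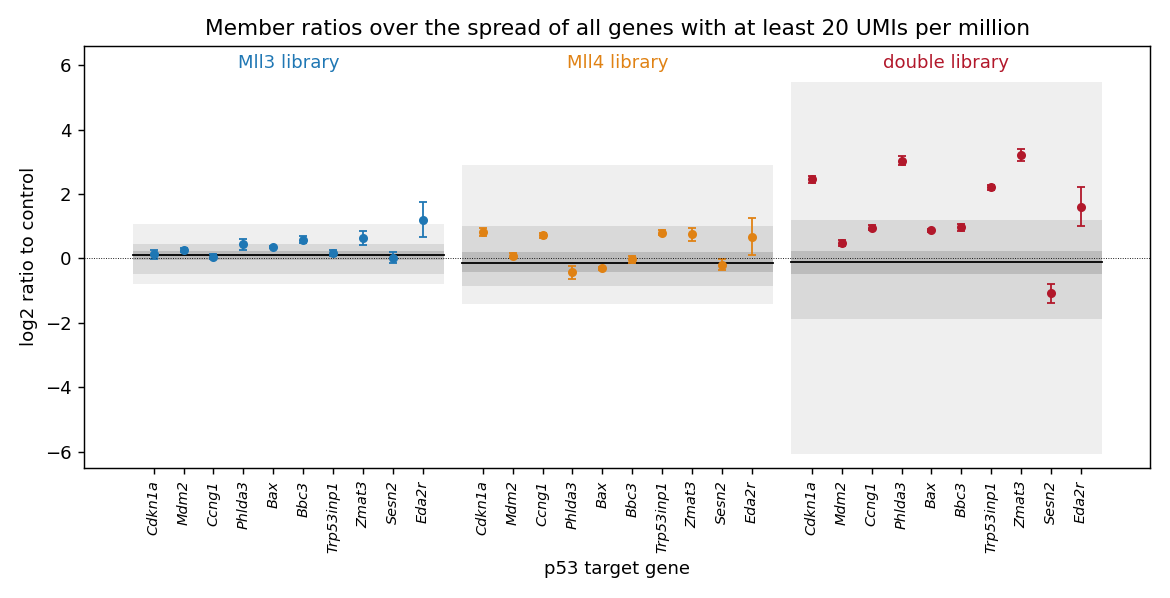
Log2 ratio to the control of each of the 10 genes with its 95% counting interval, for the 3 mutant libraries. The grey bands hold the middle 50%, 90% and 98% of all 6125 genes that averaged at least 20 CPM, with a line at their median; in the double library 5 members lie above the 90% band, while its 98% band is wide.

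The background against which these ratios stood differed by library. In the Mll3 library 1.09% of the 6125 genes that averaged at least 20 CPM were 2-fold higher and 0.457% were 2-fold lower. In the Mll4 library the shares were 4.98% and 3.28%, and in the double library 6.07% and 10.5%. Only 4 of the 10 genes (Mdm2, Ccng1, Bax and Trp53inp1) reached that mean, so the lower minimum of 5 CPM was also used, which 8 of them and 10123 genes in all passed. Both means ran over all 4 libraries, the mutant ones included. Zmat3 and Phlda3 (2.53 and 4.37 CPM in the control) reached 5 CPM only through the double library. Trp53inp1 was under 20 CPM in the control and Mll3 libraries (16.6 and 18.6) and above it in the Mll4 and double libraries. At the minimum of 5 CPM 1.85% of genes were 2-fold higher and 0.958% lower in the Mll3 library, 6.44% and 4.74% in the Mll4 library, and 8% and 13.7% in the double library. Over all 10 genes, those past 2-fold numbered 1 higher and 0 lower in the Mll3 library, 0 and 0 in the Mll4 library, and 5 higher (Cdkn1a, Phlda3, Trp53inp1, Zmat3 and Eda2r) and 1 lower (Sesn2) in the double library. Among the 8 that reached 5 CPM, which leaves out Eda2r and Sesn2, the counts were 0 and 0, 0 and 0, and 4 and 0. The median log2 ratio of the 10 was 0.30, 0.38 and 1.28 in that order, beside 0.10, -0.13 and -0.11 for all genes with at least 20 CPM. Without cells of 4 marker lists (mast, macrophage, T and innate lymphoid, mature B and plasma) the Mll4 median turned to -0.10, beside -0.13 for all genes. For the 4 genes that reached 20 CPM the medians were 0.21, 0.40 and 0.91. The Zmat3 ratio in the double library, the highest, stood at percentile 98.4 of the genes with at least 20 CPM, a set without Zmat3. Among the genes with at least 5 CPM it stood at percentile 97.9.

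The double library was also set against each single one. It was above the Mll3 library for 8 of the 10 genes beyond counting error, and above the Mll4 library for 9, with Sesn2 lower in both cases. Of the 10123 genes with at least 5 CPM, the interval lay above 0 for 30.9% and below 0 for 57.6% against the Mll3 library, and for 41.2% and 47.1% against the Mll4 library. The log2 ratio of Phlda3 was 2.59 (2.46 to 2.73) against the Mll3 and 3.46 (3.31 to 3.63) against the Mll4 library. That of Zmat3 was 2.59 (2.43 to 2.75) and 2.46 (2.31 to 2.61), so both genes were alike against the Mll3 library, and Phlda3 stood above Zmat3 against the Mll4 library. The double-library log2 ratio exceeded the sum of the Mll3 and Mll4 log2 ratios by 3.03 for Phlda3, 1.84 for Zmat3, 1.503 for Cdkn1a and 1.25 for Trp53inp1, while it was below that sum for Sesn2 (-0.91) and Eda2r (-0.25). Over all 10 genes the median excess was 0.62, beside -0.10 for all genes with at least 20 CPM. These sums share the control library.

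Because nearly all double-library cells carried B progenitor transcripts, the nearest comparison in kind was with the 177 cells of the Mll3 library that carried them too. Against those cells 5 of the 10 genes (Zmat3, Phlda3, Bbc3, Trp53inp1 and Ccng1) were 2-fold higher in the double library and none was 2-fold lower, while Cdkn1a was slightly lower and Bax did not differ beyond counting error. Of all 5705 genes that averaged at least 20 CPM over both sets of cells, 9.22% were 2-fold higher and 11.3% were 2-fold lower. Zmat3, Bbc3, Sesn2 and Eda2r did not reach that mean, and Phlda3 reached it only through the double library. The shares thus cover a different set from the 10 genes. Of these 5 genes, Zmat3, Phlda3 and Trp53inp1 were also 2-fold higher against the control, while Bbc3 and Ccng1 were not.

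Cdkn1a, Bax and Mdm2 were less than 2-fold apart in these cells. Cdkn1a was at 56.3 CPM (36.1 to 83.8) in the 20 such cells of the control, 53.1 (46.5 to 60.4) in the 177 of the Mll3, 45.2 (28.7 to 67.9) in the 21 of the Mll4 and 41.8 (40.0 to 43.7) in the 4688 of the double library. All 4 values lay far above the 7.57 CPM of the whole control library, and that of the double library was the lowest (log2 ratio to the Mll3-library cells -0.35, -0.54 to -0.14). Bax was at 200 CPM (187 to 213) in the Mll3 and 194 CPM (191 to 198) in the double-library cells, and Mdm2 was at 33.9 and 39.7 CPM with a ratio interval that held 0 (-0.01 to 0.48). Without the B progenitor list cells, Cdkn1a in the Mll3 library was at 6.32 CPM, below the 7.40 CPM of the control cells treated likewise (log2 ratio -0.23, -0.38 to -0.08).

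Of the 5 genes past 2-fold, Zmat3 had the highest ratio, with 4 UMIs in the Mll3-library cells (0.90 CPM, 0.25 to 2.32) and 1176 in the double-library cells (23.5 CPM, 22.2 to 24.9), a log2 ratio of 4.53 (3.34 to 6.58). Phlda3 was at 7.01 CPM (4.76 to 9.95) and 35.9 CPM (34.3 to 37.6), a log2 ratio of 2.34 (1.85 to 2.92). Bbc3 was at 3.84 CPM (2.24 to 6.15) and 19.9 CPM (18.7 to 21.2), a log2 ratio of 2.33 (1.69 to 3.16), so the Mll3-library B progenitor list cells were below the control library as a whole while those of the double library were above it. Trp53inp1 was at 31.6 and 77.4 CPM, and Ccng1 at 20.1 and 44.7 CPM, with log2 ratios of 1.29 (1.05 to 1.54) and 1.14 (0.85 to 1.47). Sesn2 had 5 and 107 UMIs in these cells (1.13 and 2.14 CPM), too few to give a direction (log2 ratio 0.79, -0.35 to 2.57). Eda2r had 3 and 55 UMIs (0.68 and 1.10 CPM). The median log2 ratio of the 10 was 0.97, beside -0.09 for all genes that averaged at least 20 CPM in this comparison.

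**Figure D3:**
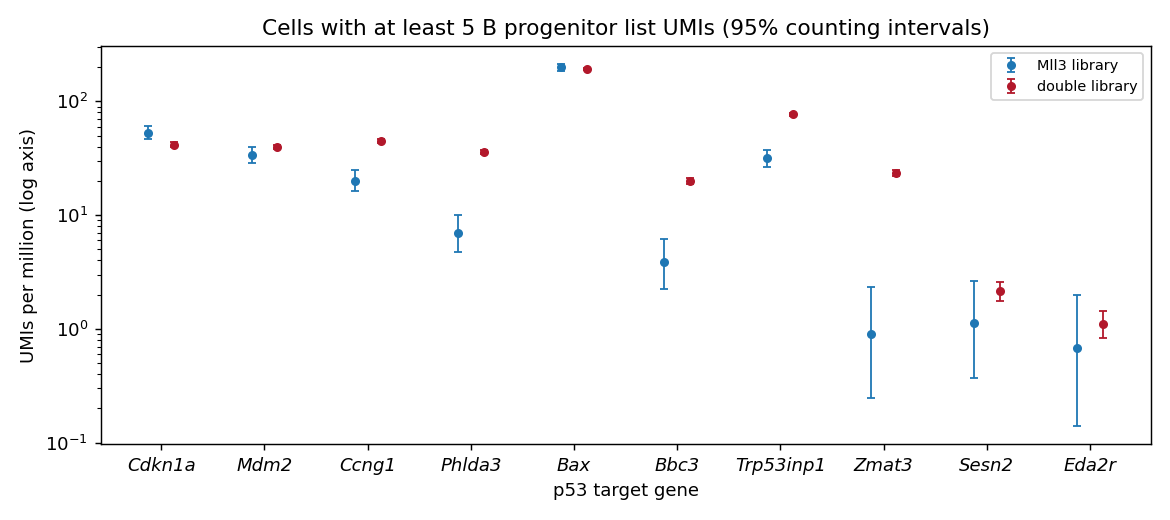
Level of the 10 genes in cells with at least 5 B progenitor list UMIs of 3000, in CPM on a log axis, for the Mll3 and double libraries, with 95% counting intervals. Bax overlaps between the libraries, while Phlda3, Bbc3 and Zmat3 are separated.

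The 2 sets of B progenitor list cells were not at the same point of the cell cycle. Transcripts of G2 and mitosis (at least 2 UMIs of 16 genes in 3000) were carried by 92.7% of the Mll3 and 29.1% of the double-library cells, and median depth was 23732 against 8940 UMIs. The median of B progenitor list UMIs was 20 against 41.5 of 3000. Among the highest doublet scores of their library were 17 of the 177 Mll3 and 180 of the 4688 double-library cells. Within the G2M class alone (164 and 1363 cells) Cdkn1a turned from lower to higher: 54.1 CPM (47.3 to 61.6) in the Mll3 and 72.5 CPM (68.9 to 76.3) in the double-library cells, a log2 ratio of 0.42 (0.22 to 0.63). Mdm2 was also higher here, at 33.5 and 42.0 CPM (0.325, 0.07 to 0.60), and Bax did not differ beyond counting error, at 203 and 208 CPM. Zmat3 (log2 ratio 4.52, 3.33 to 6.57), Phlda3 (2.63, 2.13 to 3.23), Bbc3 (2.12, 1.45 to 2.99), Trp53inp1 (1.32, 1.04 to 1.63) and Ccng1 (1.13, 0.81 to 1.47) were as far apart as in all B progenitor list cells. The part that stage within the B lineage plays was not tested.

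Phase of the cell cycle also separated the genes within each library. In the double library Cdkn1a was at 71.4 CPM in cells of the G2M class and at 12.3 CPM in cells with neither S nor G2M transcripts, a log2 ratio of 2.53 (2.30 to 2.78). The same ratio was 1.17 (0.82 to 1.55) in the control, with 8.75 and 3.87 CPM, and 1.54 (1.17 to 1.97) in the Mll3 library, with 10.7 and 3.65 CPM. In the Mll4 library the order was the opposite, with 11.7 CPM in G2M cells and 17.8 CPM in cells with neither (-0.61, -0.79 to -0.43). Cells of the mast list in that library held Cdkn1a at 32.9 CPM, and cells of the macrophage list held it at 21.4 CPM. Without both kinds of cell the Mll4-library ratio was 0.40 (0.07 to 0.76), on the side of the other libraries.

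Phlda3 followed Cdkn1a, with more in G2M cells than in cells with neither in the control (log2 ratio 0.50, 0.09 to 0.94), the Mll3 (0.69, 0.30 to 1.12) and the double library (0.69, 0.51 to 0.87), and less in the Mll4 library (-0.54, -0.90 to -0.14). Leaving out the mast and macrophage list cells did not turn this last value (-0.80, -1.25 to -0.30). Bbc3 and Trp53inp1 ran the other way and were lower in G2M cells in every library. For Bbc3 the log2 ratio was -1.22 in the control, -1.21 in the Mll3, -1.01 in the Mll4 and -0.34 in the double library. For Trp53inp1 it was -1.62, -1.45, -3.43 and -0.61 in the same order, so for both genes the double library had the ratio nearest to 0. The classes differ in depth, with medians of 13914 UMIs in G2M cells and 6837 UMIs in cells with neither in the double library, and the part of depth was not tested.

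**Figure D4:**
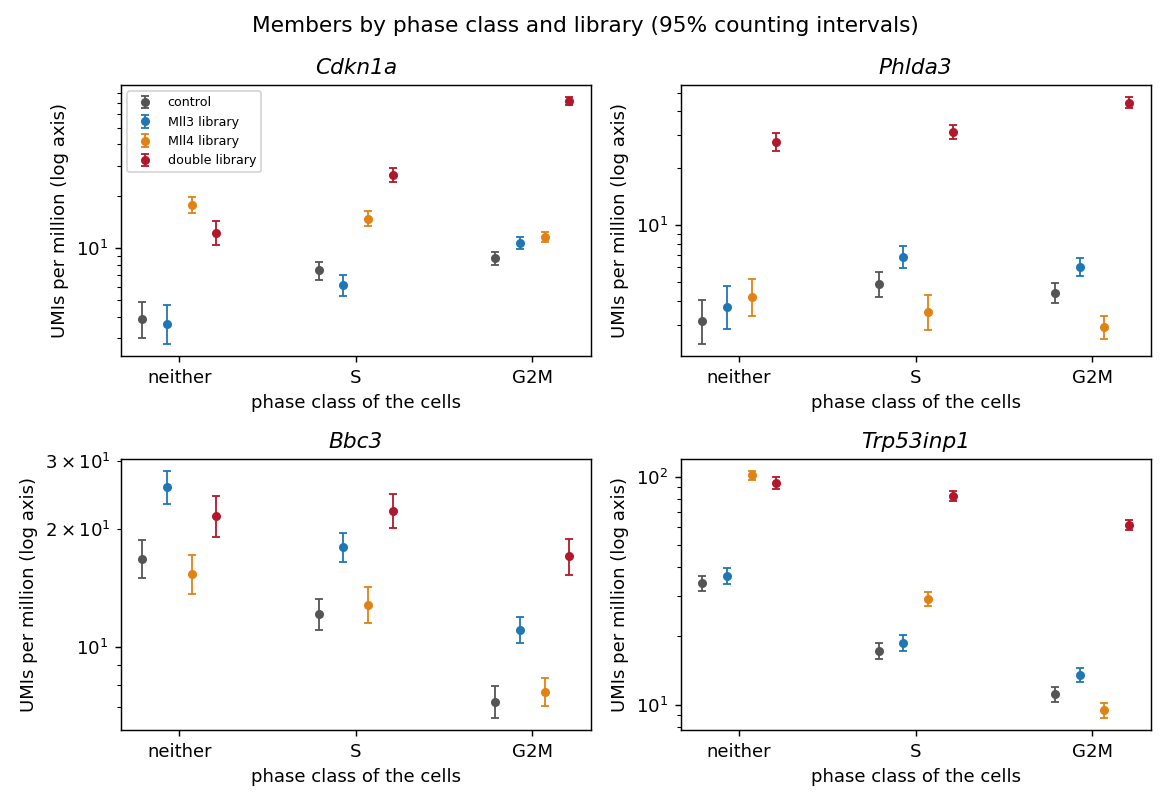
Level of Cdkn1a, Phlda3, Bbc3 and Trp53inp1 in CPM on log axes, in cells with neither S nor G2M transcripts, with S and with G2M transcripts, for the 4 libraries, with 95% counting intervals. Cdkn1a climbs from 12.3 to 71.4 in the double library, and Trp53inp1 is highest in the cells with neither in every library.

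The levels were next read within gates on the surface proteins CD150, CD48 and CD135, which divide LSK cells into stem cells (HSC) and multipotent progenitors (MPP1 to MPP4). In the double library all genes but Eda2r and Sesn2 were above the control in all 5 gates with at least 100 cells in both libraries. Sesn2 was below it in all 5. Eda2r had 1 UMI in the MPP3 gate of the double library, at 0.25 CPM against 0.31 CPM in the control. The interval lay above 0 in 3 of the 5 gates for Mdm2 and in 2 for Eda2r, and below 0 in 2 for Sesn2. Cdkn1a varied widely between gates. In the HSC gate it was at 2.24 CPM in the control, 3.51 in the Mll3, 5.86 in the Mll4 and 37.8 in the double library, and in the MPP4 gate at 16.1, 24.1, 13.3 and 44.4 CPM. Its level in the double library thus varied little between gates, from 37.8 to 54.6 CPM, while the control varied from 2.22 to 16.1 CPM, and the log2 ratio ran from 1.46 in the MPP4 to 4.07 in the HSC gate. Of the 450 double-library cells in the HSC gate, 441 carried the B progenitor list, so the gate did not hold cells of like kind in the libraries compared. Zmat3 kept ratios of 2.81 to 3.43 and Phlda3 of 1.92 to 3.53 over the 5 gates.

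The Mll3 and Mll4 libraries showed gate patterns that their totals did not. In the Mll3 library Cdkn1a was above the control in all 6 gates (log2 ratio 0.21 to 0.66, beyond counting error in 4), although its ratio over the whole library was 0.13. The HSC gate held 3011 of the 6101 Mll3-library cells and 2033 of the 7274 control cells, and the part of this in the whole-library ratio was not tested. Bax was above the control in all 6 gates in the Mll3 library, beyond counting error in each (0.28 to 0.51), and below it in all 5 measured gates in the Mll4 library (-0.57 to -0.23). In the Mll4 library Cdkn1a was above the control by 1.39 (0.86 to 1.92) in the HSC gate and by 0.68 (0.54 to 0.82) in the MPP3 gate, and below it, within counting error, in the MPP4 gate (-0.27, -0.64 to 0.08). CD135 counts formed a single mode, and with antibody counts that were not centred the numbers of cells per gate changed, to 919 control and 13 double-library cells in the HSC gate. With those gates Cdkn1a in the Mll3 library was above the control in 4 of 5 gates and below it, within counting error, in the MPP1 gate (-0.12, -0.95 to 0.62). In the Mll4 library it turned to above the control in the MPP4 gate (0.71, 0.53 to 0.89) and was above it in all 5. Bax kept its direction in every measured gate, above the control in 5 of 5 in the Mll3 library and below it in 5 of 5 in the Mll4 library. Of the double-library values, 8 genes were above the control and Sesn2 below it in all 4 such gates with at least 100 cells, while Eda2r was above it in 3.

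**Figure D5:**
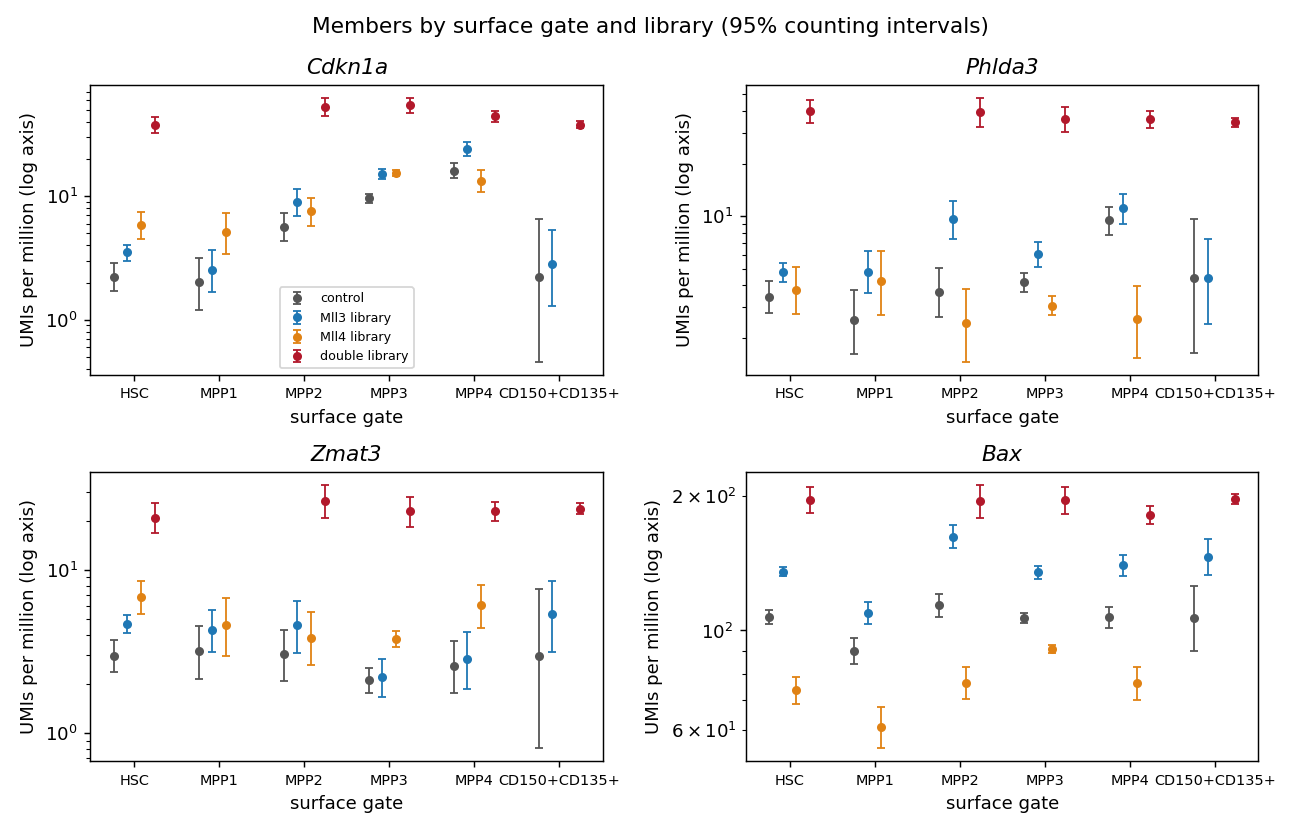
Level of Cdkn1a, Phlda3, Zmat3 and Bax in CPM on log axes, by surface gate and library, with 95% counting intervals, for gates with at least 100 cells in that library. The double-library points lie above the control in each gate shown, and for Bax the Mll4-library points lie below it.

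The Mll4-library values moved when mast, macrophage and lymphoid list cells were left out. Trp53inp1 was at 127 CPM in its innate lymphoid and T list cells, 111 CPM in its mature B and plasma list cells and 8.86 CPM in its granulocyte and monocyte list cells. Without cells of the 4 marker lists, which left 2329 of its cells, Trp53inp1 was at 12.1 CPM, below the control's 15.02 CPM, and its log2 ratio turned from 0.80 to -0.31 (-0.42 to -0.20). Cdkn1a kept its direction at 0.48 (0.34 to 0.61), as did Ccng1 at 0.46 (0.38 to 0.54), Zmat3 at 0.44 (0.20 to 0.68), Phlda3 at -0.55 (-0.77 to -0.33) and Bax at -0.32 (-0.36 to -0.28). In the double library the same step removed many B progenitor list cells as well, since the lists share genes with them, and left 1393 cells, in which Cdkn1a stood at 2.61, Phlda3 at 3.06, Zmat3 at 3.07 and Trp53inp1 at 1.98.

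Shares of cells were compared after every cell was thinned to 3000 UMIs, which left out 14, 17, 134 and 33 cells. At least 2 of the 10 genes were detected in 9.06% of control (8.41 to 9.75), 12.3% of Mll3 (11.5 to 13.1), 12.7% of Mll4 (11.8 to 13.7) and 32.2% of double-library cells (30.9 to 33.6). The mean number per cell was 0.57, 0.67, 0.64 and 1.19. Cdkn1a was found in 1.61% of control and 8.48% of double-library cells, and before thinning in 8.28% and 19.1%. Phlda3 was found in 1.25% and 9.93% of thinned cells, Zmat3 in 0.66% and 6.85%, Trp53inp1 in 5.43% and 22.5%, and Bax in 27.1% and 40.9%. These genes are made by most cell types, so no class of cells here could serve as a background that lacks them. The lowest thinned shares, 0.10% to 0.36% for Eda2r, are near the limit of detection.

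Cdkn1a was the most uneven of the 10 genes in the double library. The variance of its thinned counts was 1.502 times their mean, against 1.07 for Phlda3 and 1.11 for Zmat3, and 81 of the 400 cells with the transcript held at least 2 UMIs of it. Members were found in the same cells more often than their shares alone gave: Phlda3 and Zmat3 met in 69 cells where 32.1 were given by the shares (2.15 times), and Cdkn1a and Phlda3 in 78 where 39.7 were given (1.97 times). Bax and Trp53inp1, the 2 most abundant, met in 423 cells where 433 were given (0.98 times). Cells that differ in phase or stage share such differences across genes, and their part was not tested.

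The wider list of p53 targets was mixed. Of 22 other p53 targets, 10 had at least 20 CPM, and in the double library 6 of these were above and 4 below the control, with 1 past 2-fold higher and 2 past 2-fold lower, against 6.07% and 10.5% of all genes, and a median log2 ratio of 0.16, against -0.11 for all genes. Of the 15 with at least 5 CPM, 1 was 2-fold higher and 2 were 2-fold lower, against 8% and 13.7% of all genes. Over all 22, whatever their level, 3 were 2-fold higher and 5 were 2-fold lower, with no share over all genes to set beside them. Some of these had few UMIs in the double library, such as Gdf15 with 2 and Ak1 with 11. Btg2, an antiproliferative gene, was at 48.3 CPM in the control and 274 in the double library (log2 ratio 2.50, 2.46 to 2.55). Xpc, a DNA damage recognition factor of excision repair, was at 88.6 and 25.8 CPM (-1.78, -1.86 to -1.70), and Fdxr, a mitochondrial reductase, at 27.2 and 13.1 CPM (-1.05, -1.18 to -0.93). In the Mll3 and Mll4 libraries the same 10 targets had medians of 0.10 and -0.41, with none past 2-fold, and Rps27l, a small ribosomal-like p53 target, was at 308 CPM in the control, 187 in the Mll3 and 454 in the Mll4 library.

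Genes that sense DNA damage were, as a list, near the median of all genes in the Mll3 library and below it in the other 2. Of 16, 14 had at least 20 CPM, and their median log2 ratio was 0.11 in the Mll3, -0.33 in the Mll4 and -0.46 in the double library, beside 0.10, -0.13 and -0.11 for all genes. In the double library 9 of 14 were below the control, but the median of all genes lay below 0 too, so most genes were below it. The checkpoint kinase genes Chek1 and Chek2 were at 38.7 and 23.2 CPM in the control and at 19.4 and 11.1 CPM in the double library (log2 ratios -0.99, -1.10 to -0.90, and -1.06, -1.19 to -0.93). Mdc1, which holds repair proteins at breaks, was at 36.1 and 20.7 CPM. Damage is sensed by changes to proteins, which transcript levels do not show.

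Among the regulators of p53, Cdkn2a stood apart. The locus (chromosome 4, 89274471 to 89294653) makes both the Cdk inhibitor p16 and Arf, and counts from the shared 3-prime end do not tell them apart. It had 15 UMIs in the control (0.13 CPM, 0.07 to 0.21), 111 in the Mll3 (1.05 CPM, 0.86 to 1.26), 58 in the Mll4 (0.48 CPM, 0.36 to 0.62) and 1105 in the double library (21.8 CPM, 20.5 to 23.1). The log2 ratio for the last was 7.39 (6.71 to 8.28). In B progenitor list cells it had 12 UMIs in the Mll3 (2.71 CPM, 1.40 to 4.74) and 1104 in the double library (22.1 CPM, 20.8 to 23.4), so it was higher there too (2.97, 2.21 to 3.98). Within the double library it was at 36.9 CPM in G2M cells, 12.7 in S cells and 9.03 in cells with neither, and at 18.4 to 29.6 CPM in the gates. Of the 248 thinned cells with a Cdkn2a UMI, 21.4% (16.4 to 27) held Cdkn1a and 20.2% (15.4 to 25.7) held Phlda3, against 7.77% (7 to 8.59) and 9.36% (8.52 to 10.3) of the other 4467, while Mdm2 (11.7% and 10.97%) and Trp53inp1 (21.0% and 22.5%) did not differ beyond counting error. Cdkn2a and Cdkn1a both ran higher in G2M cells, and the part of phase in this was not tested.

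Of the genes that set the threshold for cell death, the anti-apoptotic Bcl2 and Bcl2l1 lay on opposite sides in the double library. Bcl2 was at 74.6 CPM in the control and 20.4 in the double library (log2 ratio -1.87, -1.96 to -1.78), and Bcl2l1, the gene of Bcl-xL, at 9.66 and 64.5 CPM (2.74, 2.64 to 2.84). Bcl2l11, the gene of the pro-apoptotic Bim, was at 12.0 and 34.5 CPM (1.52, 1.42 to 1.63). The pro-apoptotic genes Bid (-1.05, -1.19 to -0.92) and Bak1 (-0.51, -0.60 to -0.42) were lower than in the control. Of the 11 genes on this list, all with at least 5 CPM, 5 were above and 6 below the control. Past 2-fold were 2 higher and 3 lower, against 8% and 13.7% of all genes. The median log2 ratio was -0.36, against -0.12 for all genes. Against the Mll3-library B progenitor list cells, Bcl2l1 was still higher at 29.8 and 65.3 CPM (1.12, 0.88 to 1.39). So was Bcl2l11 at 14.5 and 34.6 CPM (1.25, 0.90 to 1.64), while Bid (-1.37, -1.65 to -1.06) and Bak1 (-1.30, -1.50 to -1.10) were lower. The other p53 targets lay on both sides in these cells. Btg2 was higher at 104 and 277 CPM (1.42, 1.28 to 1.56). Xpc was lower at 44.3 and 25.1 CPM (-0.82, -1.04 to -0.60), as was Fdxr at 21.7 and 12.9 CPM (-0.75, -1.06 to -0.42). Chek1 was lower there, at 53.8 and 19.0 CPM (-1.502, -1.71 to -1.29). In the Mll4 library Apaf1, which assembles the caspase-activating complex, was at 27.7 CPM against 14.3 in the control (0.95, 0.87 to 1.04).

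Across 22 profiles, each a surface gate in a library, the 10 genes did not share 1 pattern. Pearson's r was 0.87 between Ccng1 and Zmat3, 0.85 between Phlda3 and each of Bax and Zmat3, and 0.83 between Cdkn1a and Phlda3, while Sesn2 ran against Phlda3 at -0.72. The profiles of one library share its cells and depth, so these values describe the libraries and carry no p. For the 3 most abundant of the 10 genes, the genes most alike over these profiles were Sf3b1 (0.97), Akr1b3 (0.96) and Med10 (0.96) for Bax, Entpd1 (0.97), Cyth1 (0.96) and Ifnar1 (0.94) for Trp53inp1, and Rab22a (0.86), Bbip1 (0.80) and Exoc5 (0.79) for Mdm2.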

How the data were processed

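Droplet libraries of RNA and 6 surface antibodies were analysed, 1 per genotype, with groups taken from the sample titles. The deposited values were raw counts of UMIs per gene and cell barcode. Per the submitters' processing notes the authors used Cell Ranger 6.1.1 and the build mm10; how barcodes were chosen is not given in the sources used here. Gene coordinates came from GENCODE release M21 (GRCm38), which held 32235 of the 32285 gene identifiers.

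Barcodes were kept from 1000 genes upward and up to 10% of UMIs from mitochondrial genes, with doublets left in (their removal was an alternative). UMIs were summed per library and divided by the library total; ratios were log2 after adding 0.5 UMIs. Gates used thresholds on centred log antibody counts. A cell entered a marker class with at least 5 UMIs of the list, and a phase class with at least 2, of 3000 thinned UMIs. The ratio code was tested on simulated data. TMM factors came from edgeR 4.0.16.

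The 10 genes, the other lists and the tests were chosen with earlier results of these data known. Named genes were all 10, Trp53, Kmt2c, Kmt2d, and the 3 genes most alike to each of the 3 most abundant members. From the lists, a rule picked the 3 genes per list and mutant library with the largest absolute log2 ratio. It ran over genes that reached 20 CPM in the control or the mutant library. Only some of the genes it picked are named here. Those not named include Rchy1, Pml, Usp7, Ppm1d, Aen, Ei24, Psrc1, Parp1 and Clspn. Other genes were named, as markers or beside these, after their values were seen.

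Alternatives were other scalings, cell filters, totals, pseudocounts (3 UMIs), expression minimums, cell weights, doublet removal, thinning, gates and left-out cell classes.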

Additional observations from a re-analysis of the deposited data

Results flagged for a closer look

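Some contrasts lay on opposite sides of 0 in different libraries or gates, with 1 library each, and none of these differences was tested. Cdkn1a in G2M cells against cells with neither phase had a log2 ratio of 1.17 in the control, 1.54 in the Mll3 library and 2.53 in the double library, but -0.61 in the Mll4 library. Without mast and macrophage list cells the Mll4 value was 0.40. Phlda3 in the same contrast had log2 ratios of 0.50, 0.69 and 0.69 in the control, Mll3 and double libraries and -0.54 in the Mll4 library, where it remained below 0 without those cells (-0.80).

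Trp53inp1 in the Mll3 library against the control lay on opposite sides by surface gate. Its log2 ratio was -0.20 in the HSC gate and -1.19 in the CD150+CD135+ gate, where the control had 106 cells. It was 1.27 in the MPP2 gate, 0.43 in the MPP3 gate and 0.51 in the MPP4 gate. With gates on antibody counts that were not centred, the values were -0.004 (-0.28 to 0.28) in the HSC gate and 0.05 (-0.25 to 0.38) in the CD150+CD135+ gate, which then had 409 control cells, and no gate lay below 0 beyond counting error.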

How the results depend on the processing

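For each mutant library the 10 genes were recomputed under alternatives of scaling, cells, weights and added count. In the double library 106 of 130 such values stayed within the counting interval of the reported one, 24 moved beyond it and none changed sign. In the Mll3 library 113 of 140 stayed, and in the Mll4 library 99 of 140. Among genes whose reported interval excluded 0, the values that changed sign were Trp53inp1 in the Mll4 library without cells of 4 marker lists (-0.31 at a cut of 5 UMIs, -0.25 at a cut of 2), Trp53inp1 in the Mll3 library at the cut of 2 (-0.016), and Phlda3 in the Mll4 library after thinning (0.081). Among those whose interval held 0, Cdkn1a in the Mll3 library changed sign without B progenitor list cells (-0.227, an alternative chosen after seeing the data) and at the cut of 2 (-0.079), Ccng1 in the Mll3 library in 5 alternatives (-0.044 to -0.028), Sesn2 in the Mll3 library in 5 (-0.191 to -0.044) and Bbc3 in the Mll4 library in 6 (0.007 to 0.086). The Mll4 median of 0.38 turned to -0.10 without cells of 4 lists at either cut (-0.099 and -0.098), and was -0.31 for Bax, the only gene of the 10 with a mean of at least 100 CPM; the cause was not tested beyond the cells left out. The Mll3 median of 0.30 was 0.20 with TMM, 0.21 with median-of-ratios scaling, 0.22 with totals without mitochondrial and ribosomal protein genes, 0.37 with gates weighted to the control and 0.37 with thinning, and 0.21 for genes of at least 20 CPM. The double median of 1.28 was 0.87 for Bax alone and 0.91 for genes of at least 20 CPM.

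Of the counts past 2-fold, the Mll3 count of 1 higher was 0 with the stricter cell filter, with weighted gates and at minimums of 5, 20 and 100 CPM. The Mll4 count of 0 higher was 3 with equal weight per cell, 3 with thinning, and 1 with the stricter filter and with weighted gates. In the double library the count of 5 higher was 1 at 20 CPM and 0 at 100 CPM, and the count of 1 lower was 0 with median-of-ratios scaling, at the cut of 2 UMIs and at 5, 20 and 100 CPM. Minimums leave fewer genes. The minimum of 20 CPM, and leaving out the mast and macrophage lists or the B progenitor list, were chosen after seeing the data; the double library kept too few cells for the last. No paired analysis was possible because each genotype had 1 library. Depth limits Eda2r, with 44 to 89 UMIs per library. Median-of-ratios scaling moved the median of all genes in the double library from -0.112 to -0.005, and TMM moved it to -0.038; in the Mll3 library they moved it from 0.101 to 0.004 and 0.001.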
